A study of Mus musculus with 3 samples.

Results

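The kappa light chain V segments (Igkv) were described in peripheral blood mononuclear cells (PBMCs) of mice. All genes whose symbol starts with Igkv were taken, 160 of the 32285 genes in the count matrices, and their UMIs (unique molecular identifiers, each standing for 1 captured RNA molecule) were summed per segment and per Igkv family in B cells and plasma cells of each library. The data were 3 droplet-based single-cell libraries, 1 per group. The young group was 8 weeks old and the aged group 16 months old, both labelled as without treatment, and the aged-GA group was 16 months old and had received glycyrrhizic acid (GA), a saponin of licorice root, for 1 month. Per the methods of the study, the mice were female C57BL/6, GA was given into the tail vein, and control mice received PBS by the same route. The study names several mice per group, but nothing in the labels or matrices ties cells to mice, and how the mice were combined is not given in the sources used here. Each group was therefore treated as 1 sample. With 1 library per group, a difference between groups and a difference between libraries cannot be told apart, no test was run, and each interval given is a 95% interval that covers counting error only.

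B cells were barcodes with at least 3 UMIs of Cd79a and Cd79b, the signalling chains of the B cell receptor, and at most 1 UMI of Cd3d, Cd3e and Cd3g. Plasma cells had at least 10 UMIs of Jchain, the joining chain of secreted polymeric antibody, and at least 1 UMI of Mzb1, a chaperone of antibody assembly. The 86 cells that met both gates were counted as plasma cells. This left 2317 B cells in the young, 4550 in the aged and 5739 in the aged-GA library, and 4, 72 and 50 plasma cells. Libraries held 58894294, 82260961 and 98155671 UMIs, and the median B cell held 3413, 3190 and 3846 UMIs. The libraries shared 50 to 62 cell barcodes pairwise, of which 3 to 5 were B or plasma cells. All 12 B cell markers were found in the B cells of each library, and all 10 plasma cell markers in its plasma cells. These lists include the gate genes. Being found also did not set the gated cells apart, because all 10 plasma cell markers were found in the T cells of each library too. Markers of other cells were found in the B cell gate. The 8 T cell markers summed to 29.96 to 42.8 CPM (UMIs per 1000000 UMIs of the gated cells) and the 5 NK cell markers to 104 to 158 CPM. The 7 myeloid markers summed to 309 CPM in the young, 4332 in the aged and 1887 in the aged-GA library, and the 5 red cell markers to 47000, 112753 and 82088 CPM. In the plasma cell gate, red cell markers summed to 611, 48028 and 9895 CPM, myeloid markers to 407, 2032 and 833 CPM and T cell markers to 580, 359 and 329 CPM. Their part in the values below was not tested, other than by leaving haemoglobin out of the totals.

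During B cell development, a light chain gene is assembled by joining 1 V segment to 1 J segment, which lies ahead of the constant exon Igkc. Because segments lie in both orientations along the kappa locus, joining either deletes or inverts the DNA between V and J. A mature B cell usually shows a single functional light chain, kappa or lambda, and in mice most B cells carry kappa. The end of the V exon forms most of the third complementarity-determining region (CDR3) of the light chain, part of the antigen-binding surface. Plasma cells descend from activated B cells, keep the rearranged gene and transcribe it at a high level.

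In GENCODE M21 (mouse build GRCm38, of which mm10 is the other name), all 160 segments were matched by identifier. They lay on chromosome 6 between 67555497 and 70704177, a span of 3149 kb, with Igkc at chr6:70726435-70726966. The annotation gave 100 of them as V genes and 60 as V pseudogenes, in 20 families, with 75 on the plus and 85 on the minus strand. The 3′ ends of 8 germline V transcripts are printed here, 120 bases each. They are the most used segments of the main families, a pair of near-identical Igkv1 segments, the Igkv17 pair, and Igkv3-4, the most used segment nearest to the J segments. Capitals mark the 26 bases from the cysteine codon (TGT or TGC, in the annotated reading frame) that opens CDR3 to the end of the segment.
Igkv12-44: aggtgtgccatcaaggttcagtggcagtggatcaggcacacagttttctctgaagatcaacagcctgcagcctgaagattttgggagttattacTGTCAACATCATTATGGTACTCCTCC
Igkv1-117: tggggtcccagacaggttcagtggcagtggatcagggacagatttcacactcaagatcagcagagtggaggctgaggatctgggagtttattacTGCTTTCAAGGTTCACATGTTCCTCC
Igkv1-110: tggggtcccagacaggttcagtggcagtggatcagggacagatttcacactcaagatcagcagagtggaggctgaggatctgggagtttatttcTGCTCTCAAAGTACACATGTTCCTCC
Igkv1-135: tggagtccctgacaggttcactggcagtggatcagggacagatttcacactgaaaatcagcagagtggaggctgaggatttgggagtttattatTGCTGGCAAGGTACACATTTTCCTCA
Igkv17-127: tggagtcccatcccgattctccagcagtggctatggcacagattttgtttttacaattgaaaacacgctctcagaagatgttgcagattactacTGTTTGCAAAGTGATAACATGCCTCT
Igkv17-121: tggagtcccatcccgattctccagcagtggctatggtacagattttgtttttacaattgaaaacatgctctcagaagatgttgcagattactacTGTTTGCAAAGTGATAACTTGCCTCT
Igkv6-15: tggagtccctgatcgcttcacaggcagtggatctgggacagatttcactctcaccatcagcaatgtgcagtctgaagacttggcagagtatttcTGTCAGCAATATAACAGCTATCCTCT
Igkv3-4: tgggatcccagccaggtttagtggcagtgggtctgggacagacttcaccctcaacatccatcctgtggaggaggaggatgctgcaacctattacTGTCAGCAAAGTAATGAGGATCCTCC

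Igkv12-44 lay at chr6:69814631-69815154 on the minus strand. Igkv1-117 (chr6:68121046-68121827), Igkv1-110 (chr6:68270485-68271267) and Igkv1-135 (chr6:67609713-67610508) lay on the plus strand in the part of the locus far from Igkj1. Igkv17-127 (chr6:67861153-67861659) and Igkv17-121 (chr6:68036812-68037318) lay in the same part and on the same strand. Igkv6-15 (chr6:70406469-70406992) was on the minus strand, and Igkv3-4 (chr6:70671788-70672377) was on the plus strand and the fourth segment from Igkj1. Igkv1-117 and Igkv1-110 were each other's nearest segment, with 97.5% identical bases over the transcript, and so were Igkv17-127 and Igkv17-121, also with 97.5%. This bears on the counts, because reads that map equally well to more than 1 gene are dropped in this kind of counting. Among the 100 V genes, the median share of 50-base stretches of the transcript found in no other Igkv segment was 75.2%, and it was 49.15% for Igkv1-110 and 50.1% for Igkv1-117. Levels of near-identical segments are therefore uncertain. The libraries were also built from the 3′ end of the RNA, whereas the V segment lies at the 5′ end, so that a small part of kappa transcripts showed their V segment.

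In B cells, Igkv RNA was most abundant in the young, lower in the aged and lowest in the aged-GA library. Summed over all segments, 1261, 1731 and 1752 Igkv UMIs were counted, or 135 CPM (127 to 142) in the young, 91.5 CPM (87.2 to 95.9) in the aged and 64.4 CPM (61.5 to 67.5) in the aged-GA library. The 3 intervals did not overlap. The log2 ratio was -0.56 (-0.66 to -0.45) for aged over young and -0.51 (-0.60 to -0.41) for aged-GA over aged. Of the young B cells, 36.7% held at least 1 Igkv UMI, against 26.9% of the aged and 24.0% of the aged-GA B cells. At a common depth of 1000 UMIs per cell, for which 5 to 8 shallower cells per library were left out, the shares were 12.7%, 8.95% and 6.46%. T cells, which should lack these RNAs, had an Igkv UMI in 0.0991%, 0.252% and 0.386% of cells at median depths of 5044, 4781.5 and 5893.5 UMIs, far below the B cells.

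Whether the order young, aged, aged-GA held depended on how the cells were gated. Where the 86 cells that met both gates were counted as B cells, the log2 ratio for aged over young was 0.08 (-0.01 to 0.18), above 0. These cells were 2 in the young and 50 in the aged library. The ratio for aged-GA over aged was then -0.59. With haemoglobin left out of the totals, the ratios were -0.46 and -0.55. Igkc, the constant exon of the same transcripts, did not follow that order, at 10232 CPM in the young, 8362 CPM in the aged and 9893 CPM in the aged-GA library. Per 100 Igkc UMIs there were 1.32 Igkv UMIs (1.24 to 1.39) in the young, 1.09 (1.04 to 1.15) in the aged and 0.651 (0.621 to 0.683) in the aged-GA B cells.

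V segments of other loci were read in the same libraries. For the heavy chain in B cells there were 3.36, 1.61 and 1.41 Ighv UMIs per 100 UMIs of the heavy chain constant genes in the young, aged and aged-GA library, and for the lambda chain 0.870, 0.582 and 0.485 Iglv UMIs per 100 Iglc UMIs. In T cells, which rearrange other genes, there were 1.85, 1.28 and 0.968 Trbv UMIs per 100 Trbc UMIs of the receptor beta chain. The alpha chain was the exception, with 9.22, 6.44 and 7.77 Trav UMIs per 100 Trac UMIs. Thus V relative to C was highest in the young and lowest in the aged-GA library for the kappa, heavy, lambda and beta chain loci alike, although the lambda intervals of the aged and aged-GA library overlapped. Whether the difference at these loci, which the alpha chain did not show between aged and aged-GA, had a part in the Igkv level was not tested. Segments were described below as shares of all Igkv UMIs of the same cells, and ratios of their levels are given beside the direction of their shares.

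**Figure D1:**
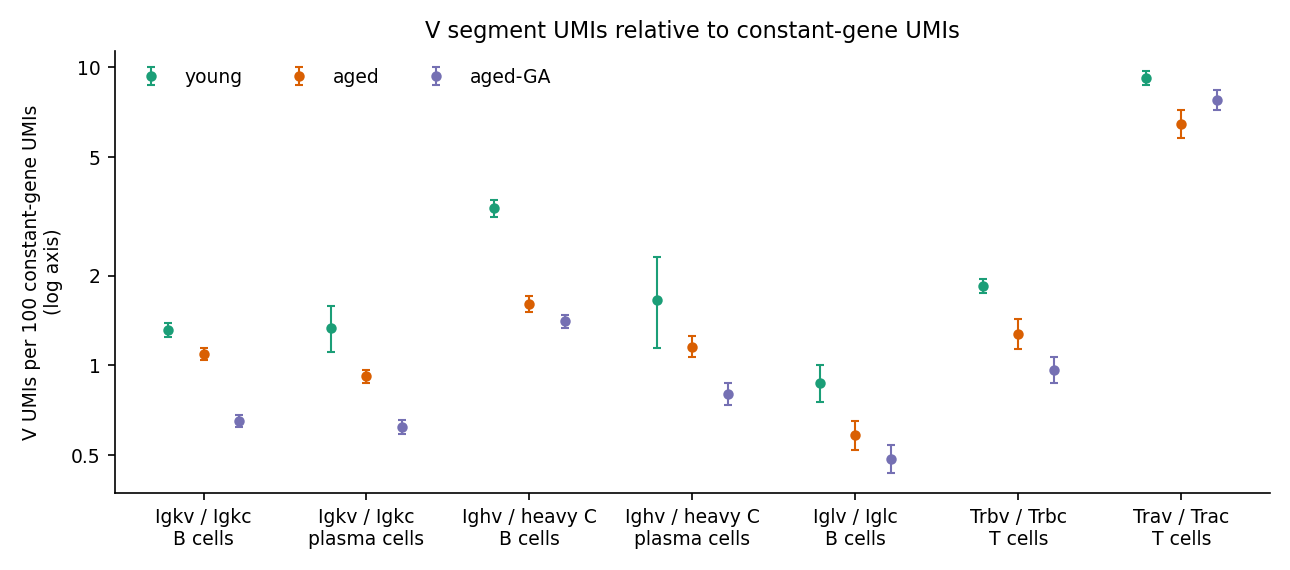
V segment UMIs per 100 UMIs of the constant genes of the same locus, on a log axis, in the young, aged and aged-GA library, with 95% Poisson intervals. Kappa, heavy and lambda chains and the T cell receptor beta chain were highest in the young and lowest in the aged-GA library, whereas the alpha chain was lowest in the aged library.

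Of the 160 segments, 119 had at least 1 UMI in B cells and 81 had UMIs in the B cells of all 3 libraries. Of the V genes, 94 of 100 were seen, with 98.8% of the 4744 UMIs. No UMI in B or plasma cells was found for Igkv1-131, Igkv4-62, Igkv20-101-2, Igkv7-33, Igkv8-34 and Igkv8-26. The pseudogenes, which lack an intact open reading frame, were seen in 25 of 60 cases with 58 UMIs together, of which Igkv2-107 had 14. Usage was uneven. The 13 most used segments gave 50% of the UMIs, and the 10 most used segments of each library gave 45.2% in the young, 45.3% in the aged and 44.3% in the aged-GA B cells.

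Igkv12-44 was the most used segment, with 103 UMIs in the young, 117 in the aged and 151 in the aged-GA library, or 8.17%, 6.76% and 8.62% of Igkv UMIs. Igkv1-117 followed with 89, 114 and 96 UMIs, and Igkv1-135 with 82, 114 and 75 UMIs. Igkv12-44 led in each library, and its intervals overlapped between libraries (6.72 to 9.82%, 5.62 to 8.05% and 7.35 to 10.0%). The next 6 segments were Igkv1-110, Igkv17-127, Igkv10-96, Igkv6-15, Igkv17-121 and Igkv2-109, and each held between 2.62% and 4.33% of Igkv UMIs in each library. For these 6, too, the intervals of the 3 libraries overlapped, as they did for Igkv1-117. The aged-GA share of Igkv1-135, 4.28% (3.38 to 5.34%), lay below its aged share, 6.59% (5.46 to 7.86%), which included 24 UMIs of a single cell. Igkv3-4 was the tenth, a place it reached through its aged-GA UMIs, so that its standing out there followed partly from the choice of segments. It had 22 UMIs in 17 cells of the young library, 43 UMIs in 34 cells of the aged library and 87 UMIs in 74 cells of the aged-GA library. No B cell held more than 3 of its UMIs, so that its value did not rest on single cells. As a share of Igkv UMIs this was 1.74% (1.10 to 2.63%), 2.48% (1.80 to 3.33%) and 4.97% (3.996 to 6.09%), and the aged-GA interval lay above the others. Counted by cells, 1.998%, 2.78% and 5.37% of the B cells with an Igkv UMI held Igkv3-4.

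**Figure D2:**
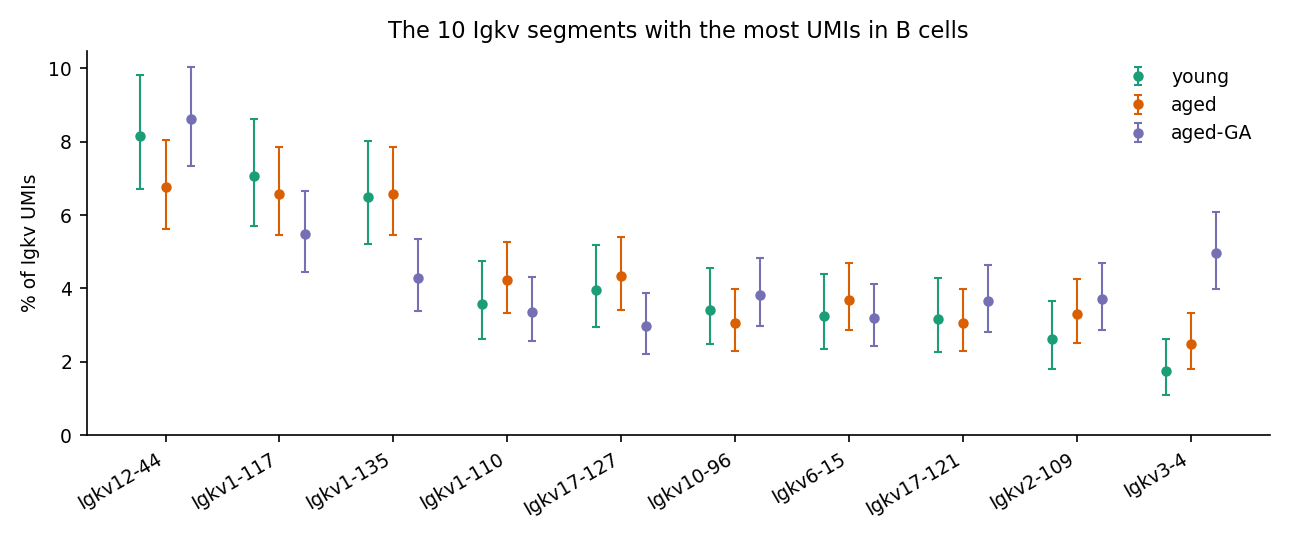
Share of Igkv UMIs of B cells taken by each of the 10 segments with the most UMIs, in the young, aged and aged-GA library, with 95% binomial intervals. Igkv12-44 was highest in each library, and the aged-GA interval of Igkv3-4 lay above those of the young and aged libraries. Igkv3-4 was among the 10 through its aged-GA UMIs.

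Segments with at least 100 UMIs over both libraries of a comparison were compared on the scale of log2(CPM + 1). For aged over young these were 7 of the 160 segments. All 7 lay below 0, as the summed level did, from -0.25 for Igkv12-46, -0.26 for Igkv1-110 and -0.30 for Igkv6-15 to -0.74 for Igkv12-44. Igkv17-127 stood at -0.35, Igkv1-135 at -0.47 and Igkv1-117 at -0.58. None of the 7 differed by 2-fold or more, where 5.19% of the 9233 genes tested were at least 2-fold higher and 0.899% at least 2-fold lower in aged B cells. Their median was -0.35, beside 0.20 over all genes. For aged-GA over aged, 12 segments had enough UMIs, and 11 lay below 0. On this scale none was 2-fold higher or lower, where this held for 0.03% and 1.43% of the 10000 genes tested. At levels this low the added 1 CPM makes ratios smaller, and the count of segments past 2-fold depends on it. Without it, Igkv1-135 (6.02 CPM in aged, 2.76 in aged-GA), Igkv12-46 (3.43 and 1.66) and Igkv17-127 (3.96 and 1.91) were more than 2-fold lower in aged-GA. With the added 1 CPM, the median of the 12 was -0.38, beside -0.01 over all genes. The lowest values were -0.90 for Igkv1-135, -0.77 for Igkv17-127, -0.74 for Igkv12-46 and -0.63 for Igkv1-117, and the only value above 0 among the 12 was 0.36 for Igkv3-4. With 43 aged and 87 aged-GA UMIs, Igkv3-4 passed the minimum of 100 UMIs through its aged-GA count. Its place among the 12 therefore followed partly from that higher count. Igkv6-20, Igkv12-44 and Igkv10-96 each stood at -0.13. As shares of Igkv UMIs, which do not carry the difference in the summed level, 5 of the 7 lay above 0 and 2 below for aged over young, and 6 of the 12 above and 6 below for aged-GA over aged. The comparisons share the aged library, so that their values are not independent.

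Single cells weighed on some of these ratios. One aged B cell held 29 Igkv UMIs, 24 of them Igkv1-135, together with 1353 Igkc and 31 Mzb1 UMIs and no Jchain UMI, and no other B cell held more than 9 Igkv UMIs. Without the B cell with the most Igkv UMIs in each library, the log2 ratio of Igkv1-135 was -0.76 for aged over young and -0.62 for aged-GA over aged, and that of Igkv17-127 for aged over young was -0.14. As shares of Igkv UMIs, Igkv1-135 stood at a log2 ratio of 0.02 (-0.40 to 0.45) for aged over young and -0.62 (-1.06 to -0.19) for aged-GA over aged, and without these cells at -0.31 (-0.76 to 0.14) and -0.30 (-0.76 to 0.16). Igkv3-4 stood at 0.51 (-0.26 to 1.32) and 1.00 (0.46 to 1.56), the latter 0.98 (0.44 to 1.54) without these cells. On the scale of log2(CPM + 1), counting the cells that met both gates as B cells changed the sign of several segments. For aged over young, Igkv6-15 (1.59), Igkv1-110 (0.69), Igkv1-117 (0.56) and Igkv12-46 (0.46) then lay above 0. Igkv12-44 (-0.72), Igkv17-127 (-0.40) and Igkv1-135 (-0.27) stayed below 0. For aged-GA over aged, Igkv1-135 (0.42) then lay above 0.

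Across the 119 segments seen in B cells, shares were alike between libraries. Pearson's r was 0.96 between young and aged, 0.92 between young and aged-GA and 0.93 between aged and aged-GA, and Spearman's rho was 0.86, 0.85 and 0.87. These values are a description across segments, which are not independent replicates and share the mapping of near-identical sequences.

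Igkv1, Igkv12 and Igkv6 were the most used families in the young and aged B cells. Igkv1 held 18.6% (16.5 to 20.9%) of the Igkv UMIs in the young, 18.7% (16.9 to 20.6%) in the aged and 14.4% (12.8 to 16.2%) in the aged-GA B cells. Igkv12 held 15.5%, 14.1% and 14.4%, and Igkv6 12.5%, 12.7% and 12.6%. Igkv3 held 6.66% (5.35 to 8.18%), 8.20% (6.95 to 9.60%) and 12.9% (11.4 to 14.6%), and in the aged-GA library it was close to Igkv6. Its share in aged-GA over aged had a log2 ratio of 0.65 (0.34 to 0.97), and in aged over young of 0.30 (-0.10 to 0.71). The share of Igkv1 had a log2 ratio of -0.37 (-0.62 to -0.13) in aged-GA over aged, and 0.01 (-0.24 to 0.25) in aged over young. For aged-GA over aged it was -0.26 (-0.55 to 0.04) without Igkv1-135 and -0.19 (-0.45 to 0.08) under a stricter B cell gate, both with intervals that include 0. Where the cells that met both gates were counted as B cells, the log2 ratio of Igkv1 for aged-GA over aged was 0.15 and that of Igkv3 was 1.06. Of the 20 families, 18 were seen and 16 reached 1% in at least 1 library. The other families of 1% or more were Igkv17, Igkv4, Igkv8, Igkv10, Igkv2, Igkv5, Igkv14, Igkv9, Igkv19, Igkv16, Igkv15 and Igkv13, and their shares ranged from 0.628% to 7.39%. Igkv16, with 25 UMIs in the aged and 12 in the aged-GA library, had a log2 ratio of shares of -1.08 (-2.20 to -0.03). Igkv18, below 1% with 2 and 10 UMIs, had one of 2.30 (0.07 to 5.54).

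**Figure D3:**
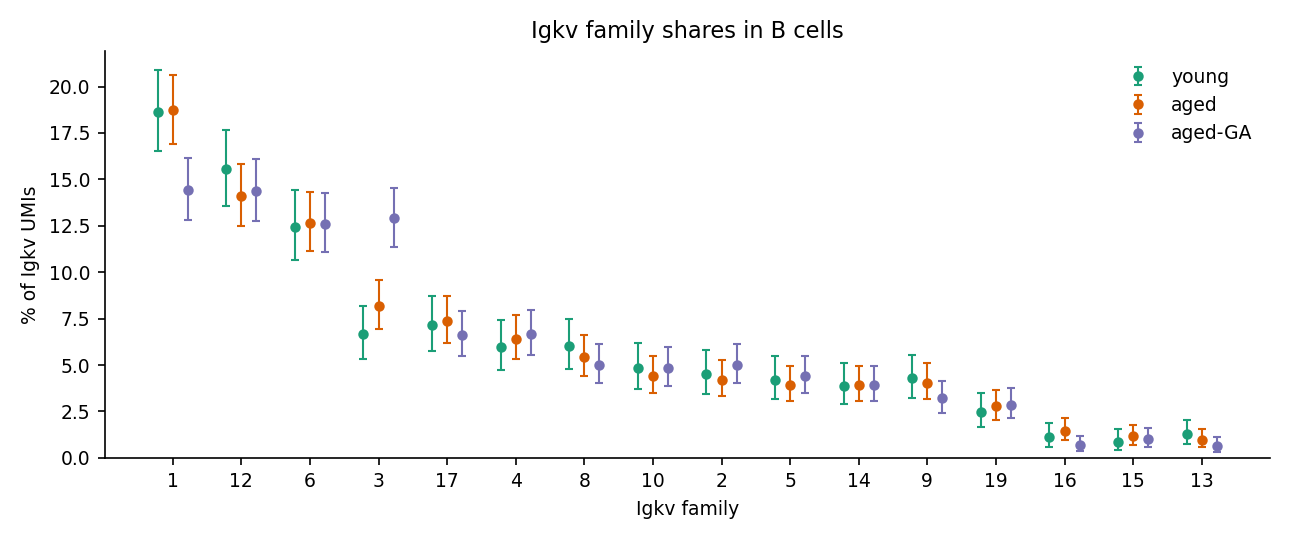
Share of Igkv UMIs of B cells taken by each of the 16 families with at least 1% in a library, in the young, aged and aged-GA library, with 95% binomial intervals. Igkv3 was higher and Igkv1 was lower in the aged-GA than in the aged library, and the share intervals of the other families overlapped between these libraries.

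Of the 9 V genes of Igkv3, 8 had more UMIs in aged-GA than in aged B cells and 1 had as many. The Igkv UMIs of these libraries summed to nearly the same number. The family was picked for its higher share in the same UMIs, so its members being higher follows partly from that choice. The same count is not given for the V genes of other families, so 8 of 9 has no reference here. Beside Igkv3-4, Igkv3-12 had 12, 14 and 29 UMIs in the young, aged and aged-GA library, Igkv3-10 had 6, 27 and 30, Igkv3-2 had 25, 23 and 31, and Igkv3-1 had 3, 4 and 12. Igkv3-10 was held by 0.588% (0.191 to 1.37%), 1.72% (1.07 to 2.61%) and 1.60% (1.00 to 2.41%) of the B cells with an Igkv UMI. Without Igkv3-4, the family held 4.92% (3.79 to 6.26%), 5.72% (4.67 to 6.92%) and 7.93% (6.71 to 9.30%) of Igkv UMIs. The log2 ratio for aged-GA over aged was then 0.47 (0.09 to 0.86). Counted by cells, with each cell given the segment with the most of its Igkv UMIs and ties left out, Igkv3 led 6.83% of 776 B cells in the young, 9.15% of 1137 in the aged and 13.1% of 1272 in the aged-GA library. Igkv1 led 18.7%, 16.8% and 15.2% of these cells, and its log2 ratio for aged-GA over aged was -0.15 (-0.44 to 0.15). That of Igkv3 was 0.51 (0.15 to 0.88). UMIs of 1 cell often shared a segment, so that intervals over UMIs treat as independent what came from fewer cells. Of the B cells with at least 3 Igkv UMIs, 42 of 88 in the young, 42 of 96 in the aged and 19 of 63 in the aged-GA library held a single segment.

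Igkv3 holds the segments nearest to Igkj1. The 160 segments were divided by their order in the locus into 4 zones of 40, with zone 1 nearest to Igkj1. Zone 1 held 25.6% (23.2 to 28.1%) of Igkv UMIs in the young, 27.4% (25.3 to 29.6%) in the aged and 31.9% (29.7 to 34.1%) in the aged-GA B cells. Zone 4, the farthest, held 39.5%, 40.2% and 34.0%. The log2 ratio of shares for aged-GA over aged was 0.22 (0.04 to 0.40) in zone 1 and -0.24 (-0.40 to -0.08) in zone 4. Without the Igkv3 family, zone 1 held 19.0%, 19.2% and 19.0%, and without the Igkv1 family, zone 4 held 21.7%, 21.9% and 20.1%. Without these families the intervals of each zone overlapped between the libraries. Zone 1 held 34 of the 100 V genes and the other zones 22 each. Segments on the plus strand held 51.2%, 52.2% and 51.2% of Igkv UMIs, and the intervals of the 3 libraries overlapped. Among the 100 V genes, the order from Igkj1 had a Pearson's r of 0.11 and a Spearman's rho of -0.01 with the UMIs in B cells, and the share of unique 50-base stretches had an r of -0.15 and a rho of -0.11.

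**Figure D4:**
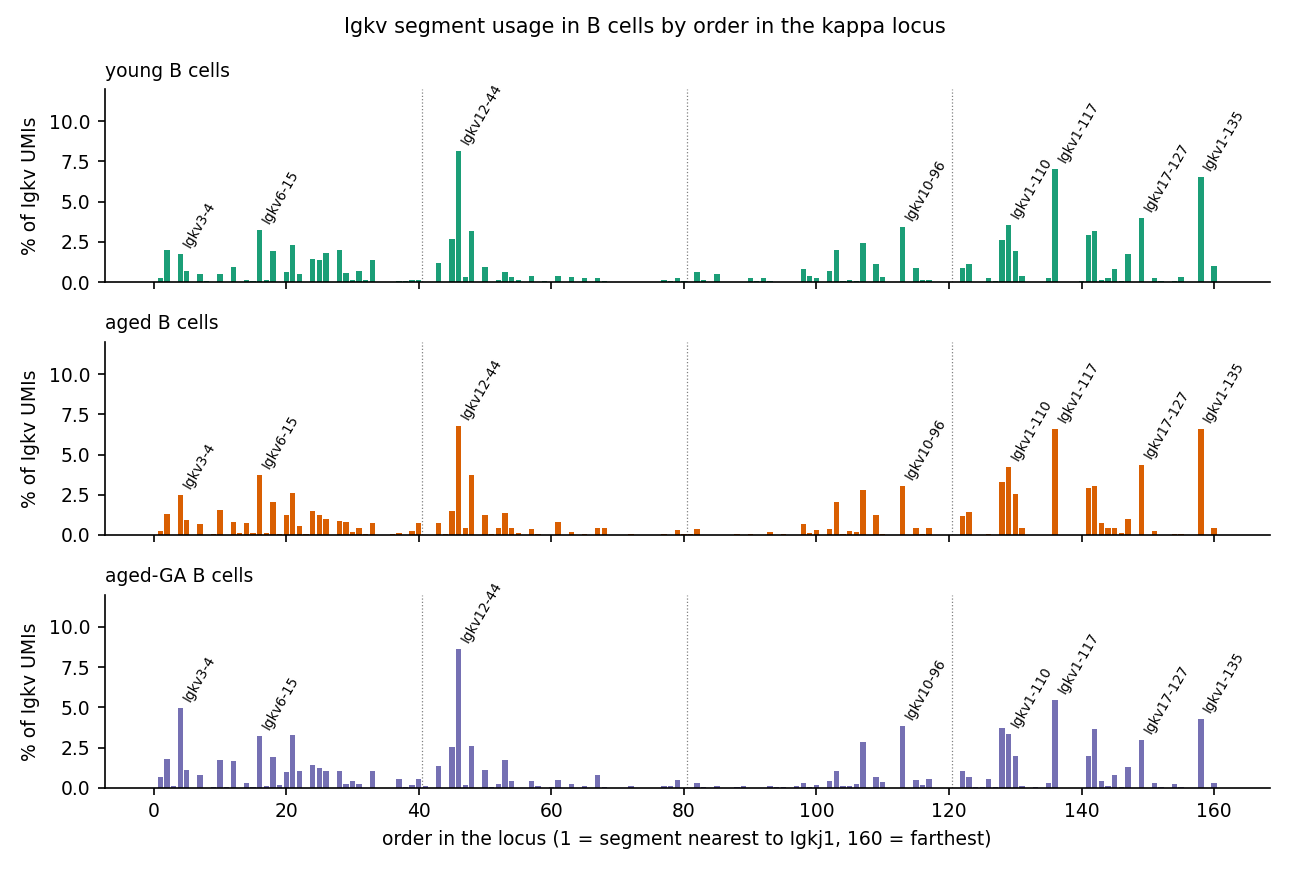
Share of Igkv UMIs of B cells taken by each of the 160 segments, in the order of the kappa locus from the segment nearest to Igkj1 to the farthest, in the young, aged and aged-GA library. Dotted lines separate the 4 zones of 40 segments. Used segments stood in groups at both ends of the locus and around Igkv12-44 in the same places in each library, and Igkv3-4 was higher in aged-GA B cells.

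A leading segment was given to a cell with at least 3 Igkv UMIs of which over 50% came from 1 segment. At this depth few B cells could be typed, 73 in the young, 79 in the aged and 48 in the aged-GA library. They were led by 34, 31 and 28 segments. Igkv1-117 led 11 young, 7 aged and 2 aged-GA B cells, and Igkv12-44 led 10, 10 and 2. The share of pairs of B cells with the same leading segment was 5.21% (137 of 2628 pairs) in the young, 4.19% (129 of 3081) in the aged and 2.22% (25 of 1128) in the aged-GA library. Their intervals overlapped (2.75 to 7.68%, 2.59 to 5.78% and 1.32 to 3.12%). Where any cell with an Igkv UMI was typed by its most abundant segment, the shares of such pairs were 2.80%, 2.63% and 2.95%, and the order of the libraries was not the same. The median share of the leading segment among the Igkv UMIs of a typed B cell was 100% in the young and aged, and 66.7% in the aged-GA library.

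Plasma cells held far more Igkv RNA than B cells. The level was 1958 CPM (1630 to 2333) in the 4 young, 1491 CPM (1419 to 1565) in the 72 aged and 1094 CPM (1035 to 1155) in the 50 aged-GA plasma cells. The log2 ratio was -0.39 (-0.66 to -0.12) for aged over young and -0.45 (-0.55 to -0.34) for aged-GA over aged. Without the plasma cell with the most Igkv UMIs in each library, the first was -0.27 (-0.62 to 0.10), which includes 0, and the second -0.48 (-0.60 to -0.37). Per 100 Igkc UMIs there were 1.33, 0.918 and 0.621 Igkv UMIs. In single plasma cells with more Igkc than lambda constant UMIs, the lowest, median and highest values were 0.545, 1.67 and 2.47 in the young, 0, 0.849 and 2.81 in the aged and 0.105, 0.543 and 3.00 in the aged-GA library, so that the cells of the libraries overlapped. Nearly all plasma cells, kappa or lambda, had Igha, the constant gene of IgA, as the leading heavy chain constant gene (4 of 4, 70 of 72 and 46 of 50 cells). Lambda constant UMIs exceeded Igkc in 0, 3 and 2 plasma cells. Of the kappa plasma cells, 6 in the aged library held no Igkv UMI, and none in the other libraries did. These 6 cells held 143 to 267 Igkc and 10 to 51 Jchain UMIs, where the gate asked for at least 10 Jchain UMIs. The median of the aged kappa plasma cells was 2579 Igkc UMIs.

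With more UMIs per cell, 54 of 72 aged and 46 of 50 aged-GA plasma cells could be typed, by 28 and 29 different segments, and the 4 young cells by 4 segments. Igkv1-110 led 8 aged and 5 aged-GA plasma cells, Igkv6-15 led 7 and 4, and Igkv1-117 led 4 and 4. Several of the 8 aged Igkv1-110 cells held only 3 to 5 Igkv, 144 to 516 Igkc and 11 to 46 Jchain UMIs. The median of the aged kappa plasma cells was 2579 Igkc UMIs. The share of pairs of plasma cells with the same leading segment was 4.75% (68 of 1431 pairs) in the aged and 2.80% (29 of 1035) in the aged-GA library, and 0 of 6 pairs in the young library. The intervals of the aged (2.13 to 7.38%) and aged-GA library (1.02 to 4.59%) overlapped. Under a stricter plasma cell gate (at least 50 Jchain and 3 Mzb1 UMIs), it was 3.81% in the aged and 2.83% in the aged-GA library. The 10 most used segments of B cells led 40.7% (27.6 to 54.97%) of aged and 41.3% (27.0 to 56.8%) of aged-GA plasma cells, and none of the 4 young ones. They were picked for their UMIs in B cells. Of the typed B cells they led 54.8% in the young, 58.2% (46.6 to 69.2%) in the aged and 35.4% (22.2 to 50.5%) in the aged-GA library. In the aged and the aged-GA library the intervals of B cells and plasma cells overlapped.

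UMI totals of plasma cells followed few cells. The cell with the most Igkv UMIs held 45.6% of them in the young, 8.08% in the aged and 11.6% in the aged-GA library. In the young library Igkv9-120 had 55 UMIs in 1 cell, Igkv15-103 had 38, Igkv6-32 had 15, Igkv5-43 had 8 and Igkv3-11 had 6, each in 1 cell. In the aged library the most UMIs came from Igkv6-15 (246 UMIs in 8 cells), Igkv1-117 (171 in 9), Igkv12-46 (146 in 4), Igkv12-44 (137 in 4) and Igkv1-110 (105 in 15). In the aged-GA library they came from Igkv1-135 (199 UMIs in 3 cells), Igkv1-117 (149 in 9), Igkv1-110 (109 in 5), Igkv14-111 (79 in 2) and Igkv3-4 (78 in 3). The segments with the most UMIs were therefore partly those of 1 to 4 cells. Pearson's r between segment shares of B cells and plasma cells across the 119 segments was 0.66 in the aged and 0.51 in the aged-GA library, and Spearman's rho was 0.43 and 0.44.

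By UMIs, Igkv1 held 20.04% of the aged and 44.4% of the aged-GA plasma cell Igkv UMIs, Igkv3 held 5.30% and 17.7%, Igkv6 held 23.8% and 8.69%, and Igkv12 held 17.6% and 2.33%. By cells, Igkv1 led 13 of 54 aged cells (24.1%, 13.5 to 37.6%) and 14 of 46 aged-GA cells (30.4%, 17.7 to 45.8%). Igkv3 led 7 of 46 aged-GA cells (15.2%, 6.34 to 28.9%) and 3 of 54 aged cells (5.56%, 1.16 to 15.4%). Igkv6 led 18.5% and 13.0%, and Igkv12 led 7.41% and 2.17%. In UMIs, leaving out the plasma cell with the most Igkv UMIs in each library moved the log2 ratio for aged-GA over aged from 1.15 to 0.77 for Igkv1 and from -2.92 to -1.999 for Igkv12. Counted over any plasma cell with an Igkv UMI, that of Igkv1 was -0.05 (18 of 61 aged and 14 of 49 aged-GA cells). For each of these families the intervals over cells overlapped between the libraries, whereas those over UMIs did not. In B cells and plasma cells alike, the point value of Igkv3 was higher in aged-GA than in aged. This was not particular to Igkv3. By UMIs it also held for Igkv2, Igkv14 and Igkv4, with log2 ratios of shares of 0.25, 0.004 and 0.06 in B cells. In plasma cells theirs were 3.40, 1.84 and 0.17, beside 1.74 for Igkv3.

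**Figure D5:**
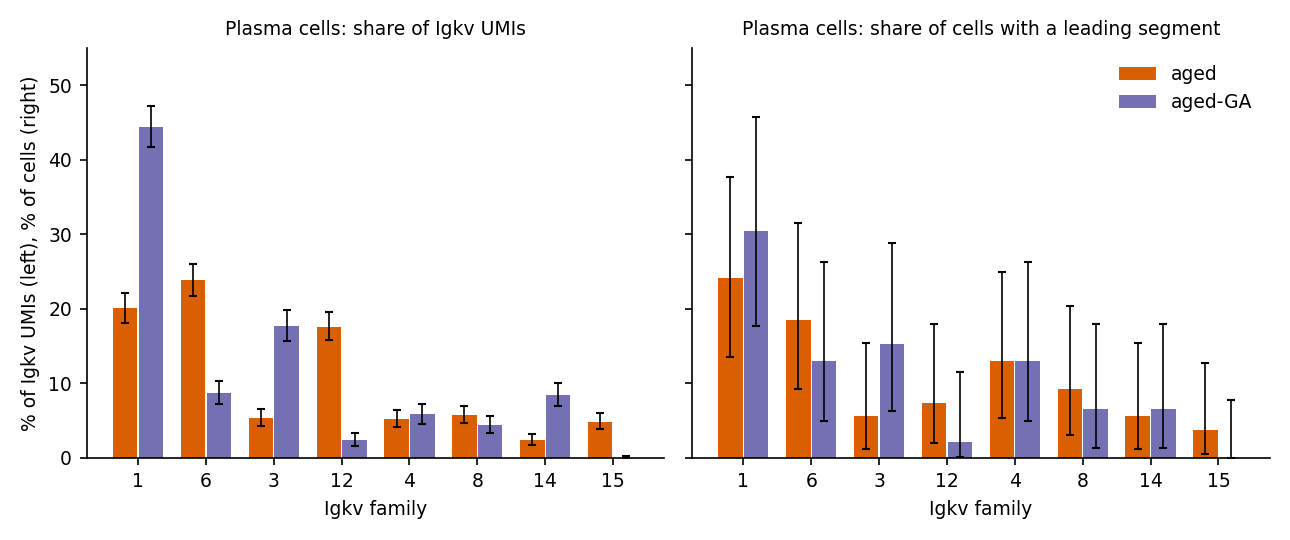
Igkv families in aged and aged-GA plasma cells, as a share of Igkv UMIs (left) and as a share of cells with a leading segment (right), with 95% binomial intervals. The aged-GA share of Igkv1 was 44.4% by UMIs and 30.4% by cells, and the intervals over cells overlapped between the libraries for every family shown.

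A second segment with at least 3 UMIs was found in 22 cells, 21 of them plasma cells. In 6 of these, Igkv1-110 led and Igkv1-117 was second, which are the pair with 97.5% identity printed above, and Igkv1-110 led 13 plasma cells in all. In 9 of the 22 cells both segments were of 1 family, and in 13 they were not. Igkv6-23 and Igkv1-135 stood together in 1 aged cell (19 and 10 UMIs) and in 1 aged-GA cell (12 and 40 UMIs). Igkv3-1, the segment nearest to Igkj1, was second in 3 cells. The part of reads placed between near-identical segments in these values was not tested. The pseudogene Igkv3-11 had 1 UMI in B cells and 38 in plasma cells, with 6, 17 and 15 UMIs in the young, aged and aged-GA library. Its nearest segment was Igkv3-6, another pseudogene, with 98.8% identity.

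Cells that share a leading Igkv segment, a leading Ighv segment and a leading heavy chain constant gene were counted among the plasma cells with all of these. There were 40 combinations in 43 aged cells and 36 in 37 aged-GA cells, and 3 in 3 young cells. In the aged library 3 combinations occurred in 2 cells each, Igkv12-46 with Ighv1-26, Igkv15-103 with Ighv9-2, and Igkv6-15 with Ighv1-52, all with Igha. In the aged-GA library Igkv1-110 with Ighv1-81 and Igha occurred in 2 cells. Junction sequences are not in a 3′ count matrix, so that shared combinations do not show shared descent.

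Among B cells with more lambda constant than Igkc UMIs, 15.0% of 153 in the young, 13.7% of 498 in the aged and 10.1% of 425 in the aged-GA library held an Igkv UMI. In B cells with more Igkc than lambda constant UMIs the shares were 38.4% of 2159, 28.6% of 4033 and 25.2% of 5296, at like median depths of 3660 and 3400 UMIs in the young, 3138 and 3196 in the aged and 3712 and 3864.5 in the aged-GA library. The lambda B cells thus stood well above the T cells and below the kappa B cells. B cells with UMIs of both Zbtb20 and Fcrl5 numbered 34, 81 and 122 and had 94.2, 101 and 74.4 CPM of Igkv, and the intervals of the 3 libraries overlapped.

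Other genes of light chain recombination, transcription and assembly were read from a list of 28, of which 19 had at least 100 UMIs over the libraries of each comparison. None of the 19 was 2-fold higher or lower in B cells in either comparison. Over all genes, 5.19% were at least 2-fold higher and 0.899% lower for aged over young, and 0.03% and 1.43% for aged-GA over aged. With 19 genes, a count of 0 lies near these shares and does not set the list apart. Their median log2 ratio was 0.22 for aged over young, with 14 above and 5 below 0, and -0.00 for aged-GA over aged, with 9 above and 10 below 0, beside medians of 0.20 and -0.01 over all genes. Pou2f2 and Pou2af1, the octamer-binding factor and its coactivator at immunoglobulin promoters, stood at 0.98 (0.91 to 1.07) and 0.46 (0.37 to 0.55) for aged over young, and at 0.00 (-0.04 to 0.05) and -0.09 (-0.15 to -0.03) for aged-GA over aged. Pax5, which sets B cell identity, stood at 0.79 (0.71 to 0.87) and 0.00 (-0.05 to 0.05), and Spib, an ETS factor of B cells, at 0.89 (0.77 to 1.03) and -0.32 (-0.41 to -0.25). Ebf1, another transcription factor of the list, went the other way for aged over young, at -0.35 (-0.38 to -0.32), and stood at 0.03 (0.01 to 0.05) for aged-GA over aged. Also below 0 for aged over young were Iglv3 (-0.57), Cd79a (-0.21) and Vpreb3 (-0.11). Igkc stood at -0.29 (-0.30 to -0.28) and 0.24 (0.23 to 0.25), opposite in sign to each other, whereas the Igkv sum was below 0 in both comparisons. Iglc1, a lambda constant gene, stood at 0.60 (0.55 to 0.65) and -0.26 (-0.29 to -0.23). The recombinase genes Rag1 and Rag2, which cut the DNA at V and J segments, had 1 and 0 UMIs in young, 6 and 2 in aged and 1 and 0 in aged-GA B cells. Dntt and Igll1, genes of early B cell development, and the 5 Igkj genes had no UMI in B cells.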

How the data were processed

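PBMCs of 3 mouse groups were measured with the Chromium Single Cell 3′ kit and sequenced on the DNBseq platform. For each library the authors deposited a matrix of UMI counts, not normalized, with genes and barcodes. The file headers name Cell Ranger 5.0.0, the methods of the study name another version, and the submitters' processing notes give the build mm10. The annotation is not given in the sources used here. The deposited features and barcodes were read with the counts.

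Cells were kept by the thresholds in the methods of the study, applied here to each library alone. Kept cells had 200 genes or more, no more than 90% of the gene number of the library's richest barcode, and up to 7.5% of UMIs from mitochondrial genes (8851, 10238 and 12648 cells). The study filtered the aggregated libraries, and the cell numbers it reports differ from these. UMIs were summed per segment and gate and scaled to CPM of the gated cells. Ratios of single genes used a pseudocount of 1 CPM and at least 100 UMIs over both libraries; their intervals are those of the ratio without it. Intervals were exact, Poisson for levels and binomial for shares and ratios, except those for pairs of cells, which came from a standard error over cells. T cells had at least 3 UMIs of Cd3d, Cd3e and Cd3g and none of Cd79a and Cd79b. No test was run, since each group had 1 library. Scripts were tested on simulated data. Shares of cells at 1000 UMIs were computed exactly from the hypergeometric distribution. Doublets were kept. As an alternative the 5% of cells with the highest Scrublet scores in each library were left out, because the automatic threshold called 437 young, 451 aged and 0 aged-GA cells. Positions, biotypes and sequences came from GENCODE M21. Identity is the best alignment of the shorter transcript within the longer one (edlib 1.3.9.post1). Python 3.11.15, numpy 2.4.6, scipy 1.17.1, pandas 2.3.3, scanpy 1.11.5 and matplotlib 3.10.9 were used.

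Named segments were the 10 with the most UMIs in B cells, the 5 with the most UMIs in plasma cells of each library, and in each comparison the 4 with the largest ratio up and down. Families of at least 1% were named too. Of the list of light chain genes only some were given with values, and the markers were given as sums. Segments without UMIs, those of cells with a second segment or a shared combination, members of Igkv3, the pseudogenes Igkv2-107 and Igkv3-11, and the Ighv genes of the combinations were named after their values were seen. The members and lists were chosen with earlier results of these data known. Promoters were not analysed here.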

Additional observations from a re-analysis of the deposited data

Results flagged for a closer look

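Igkv UMIs were also found outside the cells that were compared, above the limit that 0 counts allow. Cells kept by the filters but outside both gates, T cells included, held 184 Igkv UMIs in the young, 151 in the aged and 290 in the aged-GA library, or 4.74, 4.47 and 6.11 CPM. The limits that 0 counts allow there were 0.0773, 0.0889 and 0.0632 CPM. Of these cells 7, 7 and 14 held at least 3 Igkv UMIs. Barcodes removed by the filters held 187, 41 and 123 Igkv UMIs, or 17.6, 1.44 and 5.51 CPM, against limits of 0.282, 0.105 and 0.134 CPM. B and plasma cells held 78.9%, 94.6% and 88.0% of all Igkv UMIs of the libraries.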

How the results depend on the processing

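Of 326 values recomputed under alternatives, 253 stayed within the interval of the value reported or, for counts, kept the count or one near it. The other 73 did not. Of the recomputed log2 ratios, 41 had the other sign, 9 of 72 for summed levels and family shares and 32 of 170 for single segments. Some of those for single segments set a share of Igkv UMIs against a level, which are different quantities. The alternatives with haemoglobin left out, per Igkc, by the top Scrublet scores, without the B cell with the most Igkv UMIs (also as shares), and over any cell with an Igkv UMI for families were chosen after seeing the data. The cause of each difference was not tested. With cells that met both gates also counted as B cells, the Igkv level in aged over young turned to 0.082, Igkv1 in aged-GA over aged to 0.15, Igkv1-117 in aged over young to 0.56 and Igkv1-135 in aged-GA over aged to 0.42. Igkv6-15, Igkv1-110 and Igkv12-46 in aged over young also changed sign there, to 1.59, 0.69 and 0.46. There the share of Igkv1 in aged over young moved to 0.28 and that of Igkv3 in aged-GA over aged to 1.06. Of the segments, 1 was then at least 2-fold higher in aged over young, and in aged-GA over aged 1 was higher and 5 were lower. The share of all genes past 2-fold was not computed under the alternatives, so these and the following counts of segments have no reference. With no minimum of UMIs, 1 was lower in aged over young. As a share of Igkv UMIs, Igkv1-135 in aged over young turned to 0.018. By cells with a leading segment, Igkv6-15 in aged-GA over aged turned to 0.30 (-2.5 to 2.9), from 4 aged and 3 aged-GA cells. Igkv12-46 turned to 1.72 (-2.5 to 7.6), from 1 and 2 cells. Both intervals include 0. By these cells, few per segment, 2 segments were 2-fold higher and 6 lower. In B cells, Igkv1 then moved to -0.53 in aged over young and -1.60 in aged-GA over aged, and Igkv3 in aged over young to 1.11. In plasma cells, aged-GA over aged, Igkv1 moved to 0.34, Igkv6 to -0.51 and Igkv12 to -1.77 by leading segment, and to -0.047, -0.34 and -0.68 over any cell with an Igkv UMI. Without the top plasma cell, Igkv1 moved to 0.77 and Igkv12 to -1.999. Per Igkc UMI, the level in B cells moved to -0.27 in aged over young and -0.75 in aged-GA over aged, and that in plasma cells to -0.56 in aged-GA over aged, where the stricter plasma cell gate gave -0.60. At 1000 UMIs per cell, 12.7%, 8.95% and 6.46% of B cells held an Igkv UMI in the young, aged and aged-GA library, and the stricter B cell gate gave 28.2% in the aged library. No paired analysis was possible because each group had 1 library. The planned motif search in promoters was not run. Depth limits the typing of B cells, most of which held no Igkv UMI.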
